A study of Rattus norvegicus with 18 samples.

Results

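Zfp36 (tristetraprolin), Zfp36l1, Zfp36l2, Zc3h12a (Regnase-1) and Elavl1 (HuR) encode proteins that set how long other messenger RNAs last, and their own transcripts were followed here in the proximal stump of the rat sciatic nerve from 0 h to 9 h after transection. They were found as the non-control probes whose gene name in the scanner files, or whose RefSeq accession, is 1 of these 5 genes, which gave 6 of the 41012 probes on the array and 5 of its 35278 gene names. Adult male Sprague-Dawley rats had a segment of 1 cm removed from the left sciatic nerve, and 0.5 cm of the proximal stump, the part that stays joined to the spinal cord, was taken at the time of the operation (0 h) or at 1 of 5 later time-points (0.5 h, then 1 h and 3 h, then 6 h and 9 h). Each time-point was measured on 3 Agilent arrays of 1 colour, 18 in all, which read the abundance of a transcript from the fluorescence of a spot carrying a matching probe of 60 bases. All 6 groups share the strain, the sex, the anaesthesia and the operation, and differ in the time of collection. The labels name the 0 h group as resected nerve too. Sham-operated nerve was not analysed here.

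Transcripts of early response genes, cytokines and chemokines often carry AU-rich elements, repeats of ATTTA in the DNA letters used below. The zinc fingers of Zfp36, Zfp36l1 and Zfp36l2 bind such elements and bring in the CCR4-NOT complex, which removes the poly(A) tail, so that the RNA is decapped and degraded. Zc3h12a is an endonuclease that cuts stem-loops of cytokine RNAs, whereas Elavl1 binds AU-rich elements and mostly protects the RNA. Zfp36 RNA itself carries AU-rich elements, and the p38 and Mk2 kinases hold its protein inactive by phosphorylation, so that the level of the transcript is not the activity of the protein.

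The probe that reports Zfp36 on the array is itself cut from an AU-rich stretch, and it is shown here because it holds the element that the protein binds. It lies on chromosome 1 of the rn4 build from 83486788 to 83486847 on the minus strand. A window of 30 bases of it, chr1:83486815-83486844, is printed 5′ to 3′ with the nonamer TTATTTATT in capitals, beside windows from the probes of Csf3, Il10 and Ccn1, in which the capitals mark the core TATTTAT.
Zfp36: tatgacgactTTATTTATTgtaataagatt
Csf3: tccagaaagttTATTTATctctatttaata
Il10: tctctccaaaaTATTTATtacctctgatac
Ccn1: ttgaatgttttTATTTATcaaaatgtagct
The windows of Il10, chr13:43957727-43957756 on the plus strand, and of Ccn1, chr2:243824418-243824447 on the minus strand, are also on rn4. For Csf3 the files place the whole probe on chromosome 10 between 87475700 and 87475760, a span that is longer than the probe, so its window has no exact position. The nonamer occurs in the reported probe of 40 of the 27199 gene names tested (0.147%), and the core, searched on the strand of the transcript and including those nonamers, in 259 (0.952%). Among the 57 tested transcripts of the unstable lists described below, 3 have the core in their probe, and these are the 3 printed. A probe covers only a small piece of a transcript, so the absence of these letters from a probe says nothing about the rest of the RNA.

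The files give no exon or untranslated region for these positions. The other reported probes lie on chromosome 6 from 103119626 to 103119685 for Zfp36l1 and from 7532694 to 7532753 for Zfp36l2, on chromosome 5 from 144458480 to 144458539 for Zc3h12a, and on chromosome 12 from 1487449 to 1487508 for Elavl1. Those of Zfp36l1, Zfp36l2 and Zc3h12a are on the minus strand and that of Elavl1 on the plus strand. All 5 were well above background on all 18 arrays. A second probe of Zfp36l2 spans 554 bases of chromosome 6 (7534174 to 7534727), was well above background on 16 arrays, and is described with that gene.

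Values below are log2 signals minus the 75th percentile of the array, so that they compare time-points for a probe and not one probe with another. A change was called with an unadjusted P-value below 0.01 and a Benjamini-Hochberg adjusted P-value below 0.05 over all 32111 probes tested by limma, and adjusted P-values below come from that fit unless another fit is named. The share of spots well above background was 65.9% to 93.5% per array, and arrays of a time-point correlated at 0.976 to 0.992. All 14 Schwann cell markers of a fixed list were well above background on every 0 h array. At 9 h 6 of them were called lower and 0 higher, as were 5 of 9 fibroblast markers (15.3% of all gene names were called lower), and the summed signal of the Schwann cell markers, in units of the 75th percentile, ran from 863 to 1022 (0 h) and from 680 to 778 (9 h). The part of these markers in the levels of the regulators was not tested. In such a tissue, fewer cells of a type and less RNA per cell cannot be told apart. The summed signal of 11 neutrophil markers, in the same units, ran from 1.48 to 2.44 in the 0 h group and from 3.25 to 5.83 in the 0.5 h group, and it reached 9.74 to 24.4 (3 h) and 20.0 to 24.0 (9 h), while that of 12 skeletal muscle markers ran from 138 to 1952 among the 0 h arrays, with no steady course later (2.18 to 564 at 6 h, 2.02 to 180 at 9 h). The 0 h and 0.5 h arrays were scanned on 1 day, those of 1 h, 3 h and 6 h and 2 of 9 h on another, and the last 9 h array apart from both. Differences of 1 h and later from 0 h and the scan day therefore cannot be told apart, whereas 0.5 h against 0 h, and 3 h or 6 h against 1 h, lie within a day.

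Over the 6 time-points 3 of the 5 regulators passed the F-test, Zfp36, Zfp36l1 and Zc3h12a, where 34.7% of all gene names did. Against 0 h 2 of the 5 were called, all higher, at each time-point: Zfp36 and Zfp36l1 at 0.5 h, and Zfp36 and Zc3h12a from 1 h on. Among all gene names the shares called were 6.01%, 5.63%, 14%, 25% and 31.1% in the order of the time-points. Between consecutive time-points after 0.5 h, 2 of the 5 were called in the step from 1 h to 3 h, both lower (10.2% of all gene names were called in either direction), and none from 3 h to 6 h (5.32% of all) or from 6 h to 9 h (0.011%). From 0.5 h to 1 h limma called 0 of the 27199 gene names, with 3485 at an unadjusted P-value below 0.05. With 5 members, 1 gene more or fewer moves such a share by a large step, so the genes are described singly.

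**Figure D1:**
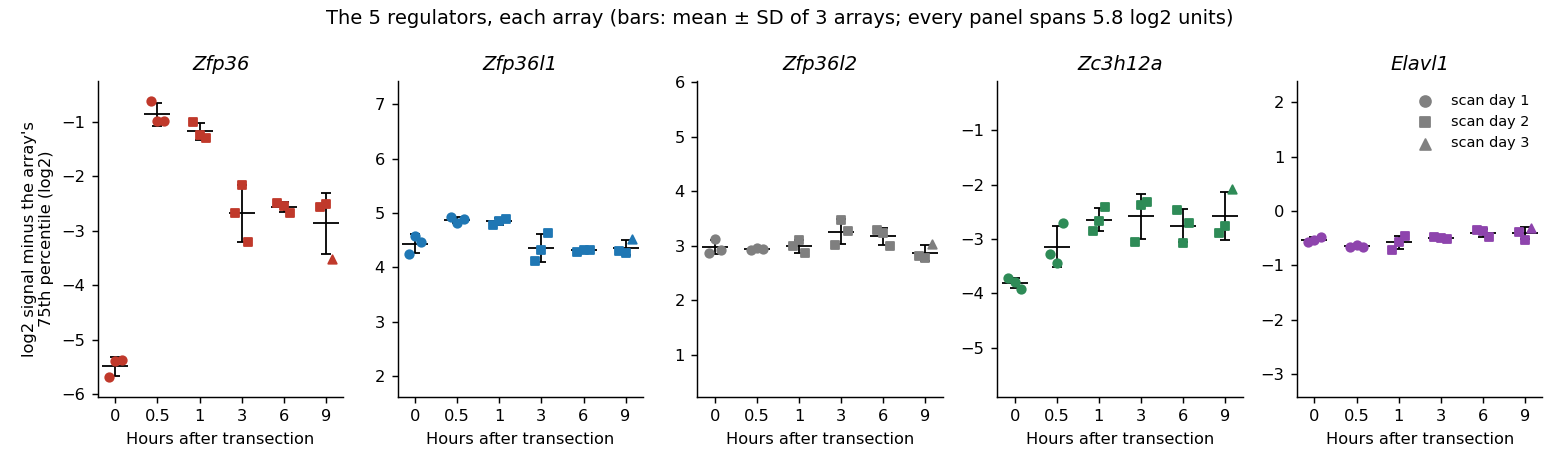
Log2 signal minus the array's 75th percentile for the 5 regulators (one panel each) on the 18 arrays by hours after transection, with the mean and SD of 3 arrays as bars and the scan day as the symbol. Zfp36 rises from a mean of -5.49 at 0 h to -0.86 at 0.5 h and lies between -3.51 and -2.17 from 3 h on, while Elavl1 stays between -0.71 and -0.32.

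Zfp36 gave the largest change of the 5. Its arrays read -5.69, -5.40 and -5.38 at 0 h. By 0.5 h they gave -0.61, -0.99 and -0.98. The 1 h arrays followed with -0.998, -1.23 and -1.29. Those of 3 h read -2.67, -2.17 and -3.21. The 6 h arrays gave -2.50, -2.54 and -2.67 and the 9 h arrays -2.57, -2.52 and -3.51. Every array after the cut thus lay above every 0 h array, the 0.5 h and 1 h arrays lay above all later ones, and the last 3 time-points overlapped. In order of the mean, 0.5 h (-0.86 ± 0.21, SD, n = 3 arrays) was followed by 1 h (-1.17 ± 0.15), 6 h (-2.57 ± 0.09), 3 h (-2.68 ± 0.52), 9 h (-2.87 ± 0.56) and 0 h (-5.49 ± 0.17). Of the neighbours in this order the test called neither 0.5 h and 1 h (adjusted P 0.659) nor 6 h and 3 h (0.861) nor 3 h and 9 h (0.680).

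Against 0 h Zfp36 rose 24.7-fold at 0.5 h, by 4.63 on the log2 scale (SE 0.26, adjusted P 5.28e-07). After 1 h the rise was 4.31 (adjusted P 9.08e-07). Later it was 2.81 (3 h, adjusted P 1.83e-05), 2.92 (6 h, 5.77e-06) and 2.62 (9 h, 1.12e-05), so that the level was still 6.15-fold that of 0 h in the last group. The change at 0.5 h lies within a scan day. A fit of those 6 arrays alone, which gives the same change by construction, called it too (adjusted P 0.000743, with 3.73% of all gene names called). Leaving out each array in turn gave 4.50 to 4.69 at 0.5 h. The median processed signal was 30.9 at 0 h and 749 at 0.5 h. The base is thus dim: a second probe of Zfp36l2, with a median of 31.6 at 0 h, was well above background on only 16 of the 18 arrays. The size of the fold changed with the background correction: with normexp the rise was 3.16 at 0.5 h and 1.37 at 9 h, still called at both.

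From 1 h the transcript came down. It fell by 1.51 on the log2 scale from 1 h to 3 h (SE 0.26, adjusted P 0.00276) and by 1.39 from 1 h to 6 h (adjusted P 0.00189), and 24% of all gene names were called in the second of these comparisons. Both falls lie within the second scan day, in whose 11 arrays alone the adjusted P-values were 0.00714 and 0.00394 (7.06% and 21.5% of all called). The fall to 3 h was not called with normexp (-1.02, adjusted P 0.295), whereas that to 6 h was (-1.41, adjusted P 0.0309). From 3 h to 6 h it changed by 0.11 and from 6 h to 9 h by -0.30, and neither step was called. Within the second scan day, which leaves out the 9 h array at -3.51, 9 h lay 0.02 above 6 h and 0.14 above 3 h. The place of the 9 h mean below both thus rests on that array.

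Zfp36l1 encodes the paralog often called Brf1. The 0 h arrays gave 4.25, 4.58 and 4.48, the 0.5 h arrays 4.92, 4.82 and 4.90, and the 1 h arrays 4.79, 4.85 and 4.90. The 3 h arrays gave 4.13, 4.31 and 4.63, the 6 h arrays 4.29, 4.33 and 4.33, and the 9 h arrays 4.31, 4.26 and 4.52. The 0.5 h and 1 h arrays lay above all others, and the later time-points overlapped with 0 h. In order of the mean, 0.5 h (4.88 ± 0.05) and 1 h (4.85 ± 0.06) came first, with no call between them (adjusted P 0.935), followed by 0 h (4.43 ± 0.17), 9 h (4.36 ± 0.14), 3 h (4.36 ± 0.26) and 6 h (4.32 ± 0.02), none of them called against its neighbour.

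The rise of Zfp36l1 was small, 1.36-fold at 0.5 h (0.44 on the log2 scale, SE 0.12, adjusted P 0.0474) and 1.33-fold at 1 h (0.41, adjusted P 0.0661, not called). Its call at 0.5 h sits at the threshold: it was lost when any of 14 of the 18 arrays was left out (adjusted P 0.0556 to 0.144), when arrays were scaled by their median (0.29, adjusted P 0.156), with normexp (0.691), when dim probes were kept (0.0605) and among the 6 arrays of that scan day (0.104). It was called by quantile normalization (0.54, adjusted P 0.0336). At 1 h the rise was called in 6 of 28 alternative fits, with adjusted P-values of 0.0323 to 0.405 over the 28. The fall from 1 h to 3 h by 0.49 (SE 0.12, adjusted P 0.0212) and from 1 h to 6 h by 0.53 (adjusted P 0.00611) held within the second scan day (adjusted P 0.0497 and 0.0175). That to 3 h was not called with scaling by the median (adjusted P 0.0522), with normexp (0.184), or when any of 3 arrays was left out, the 1 h array of number 3 and the 3 h arrays of numbers 1 and 2 (0.0637 to 0.0811). That to 6 h was called without each of the arrays, and with every other alternative except normexp (-0.45, adjusted P 0.207).

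Zfp36l2, the remaining paralog, read 2.87, 3.12 and 2.92 in the 0 h group and 2.93, 2.96 and 2.94 in the 0.5 h group. In the 1 h group it read 3.00, 3.11 and 2.86 and in the 3 h group 3.02, 3.48 and 3.28, followed by 3.29, 3.23 and 3.00 (6 h) and 2.80, 2.77 and 3.03 (9 h). Every time-point overlapped with 0 h, and the gene was called neither over time (adjusted P 0.106) nor against 0 h. The largest difference from 0 h was 0.29 at 3 h (95% interval 0.02 to 0.56, adjusted P 0.143), and at 0.5 h it was -0.03 (95% interval -0.29 to 0.24). The means ran from 3.26 ± 0.23 at 3 h to 2.87 ± 0.14 at 9 h, and the only contrast called among those tested was 9 h against 3 h (-0.39, adjusted P 0.0488), in which 16.1% of all gene names were called. That call was lost within the second scan day, which leaves out 1 of the 9 h arrays (-0.47, adjusted P 0.105). Its second, dim probe had changes of 0.34 to 0.73 against 0 h and was not called either (adjusted P 0.557 over time).

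Zc3h12a, the endonuclease, was first called at 1 h and was still called at 9 h. Its 0 h arrays read -3.71, -3.80 and -3.91, those of 0.5 h -3.27, -3.44 and -2.71, and those of 1 h -2.84, -2.67 and -2.41. For 3 h the readings were -3.05, -2.37 and -2.32, for 6 h -2.47, -3.08 and -2.71, and for 9 h -2.89, -2.76 and -2.08. All 15 arrays after the cut were above all 3 of 0 h, and from 1 h to 9 h the time-points overlapped. The means from 1 h on lay between -2.75 ± 0.30 at 6 h and -2.58 ± 0.43 at 9 h, and 0.5 h lay between them and 0 h (-3.14 ± 0.38 against -3.81 ± 0.10).

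At 0.5 h the change of Zc3h12a, 0.67 on the log2 scale, was not called (SE 0.26, adjusted P 0.144). By 1 h it was 2.24-fold over 0 h (1.17, adjusted P 0.0187). The later folds were 2.34 (3 h, 1.23, adjusted P 0.00631), 2.08 (6 h, 1.05, adjusted P 0.00804) and 2.34 (9 h, 1.23, adjusted P 0.00250). None of these 4 calls was kept with normexp (changes of 1.19, 1.41, 0.71 and 0.85, adjusted P 0.0762 to 0.445), and the call at 1 h was lost when the 0 h array of number 2, that of number 3 or the 1 h array of number 3 was left out (adjusted P 0.0578, 0.0635 and 0.0739). All 4 set arrays of a later scan day against the first (at 9 h, 2 arrays of the second day and the highest, -2.08, of the last), so the rise after 0.5 h and the scan day cannot be told apart, and its changes from 1 h to 3 h and from 1 h to 6 h, within a day, were 0.06 and -0.11 with no call. The F-test lost this gene with normexp (adjusted P 0.187) and without replicate 3 of 0 h, where the unadjusted P was 0.0111. The neutrophil markers rose over the same hours. Of 12 macrophage markers 3 were called higher and 1 lower at 9 h, where 15.8% and 15.3% of all gene names were. The part of either cell type in the level of Zc3h12a was not tested.

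Elavl1, the stabilizing protein, was not called at any time-point. The 0 h arrays read -0.57, -0.53 and -0.49, the 0.5 h arrays -0.66, -0.62 and -0.66, and the 1 h arrays -0.71, -0.57 and -0.46. Later readings were -0.49, -0.50 and -0.52 (3 h), -0.35, -0.36 and -0.48 (6 h), and -0.38, -0.53 and -0.32 (9 h). The 0.5 h arrays lay below and the 6 h arrays above all 0 h arrays, by margins that the test did not call (changes of -0.11 and 0.13, adjusted P 0.446 and 0.251). Over time the adjusted P was 0.111, and the 95% intervals of the 5 changes against 0 h lay within -0.29 and 0.31.

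**Figure D2:**
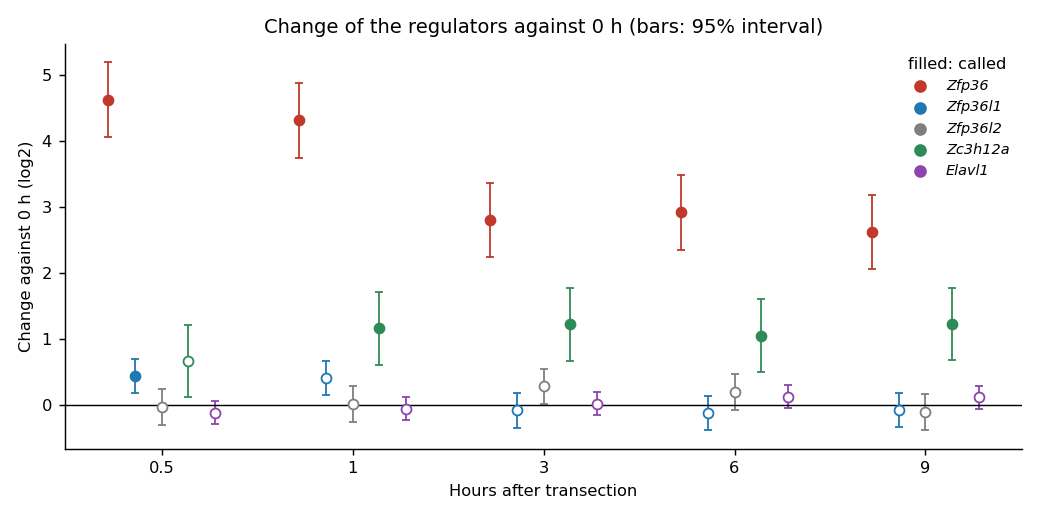
Change of each regulator against 0 h on the log2 scale (vertical axis) at 0.5 h to 9 h (horizontal axis), with 95% intervals from the limma fit and filled points where the change was called. Zfp36 lies between 2.62 and 4.63 at all 5 times, Zc3h12a between 0.67 and 1.23, and Zfp36l2 and Elavl1 have intervals close to or across 0.

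The promoter of Zfp36 is printed because the gene had the largest early rise of the 5. RefSeq places the 250 bases before its start at chr1:92799109-92799358 on the minus strand of the GRCr8 build, printed 5′ to 3′, and the capitals mark the letters GCGGGGGCG, which Egr1 can bind, and a CArG box, the element of serum response factor.
Zfp36: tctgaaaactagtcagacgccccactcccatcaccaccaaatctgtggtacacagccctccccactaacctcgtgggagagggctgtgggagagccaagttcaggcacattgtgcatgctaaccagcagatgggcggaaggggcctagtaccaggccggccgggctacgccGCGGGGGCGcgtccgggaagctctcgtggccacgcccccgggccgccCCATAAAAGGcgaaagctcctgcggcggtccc
Counted from -1 at the base before the start, GCGGGGGCG lies at -79 to -71 and the CArG box at -32 to -23, where it overlaps the letters ATAAAA at -30 to -25. On either strand of windows of the same length, a CArG box was found in 1.50% and GCGGGGGCG in 2.45% of 33469 rat promoters, and ATAAAA in 18.6%. All 5 regulators were matched in the promoter table, and neither motif was in the window of the other 4. The letters TGACG, part of a cyclic AMP response element, were in those of Zfp36l2 and Zc3h12a, as in 18.2% of all, and TATAAA was in that of Zfp36l1, as in 12.9%. An NF-kB site and the full element TGACGTCA were in none of the 5 windows, which span a small part of the sequence near each gene. A match is a description of the letters and no measure of binding.

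Transcripts known for AU-rich or otherwise short-lived RNA were set beside the regulators in 2 lists. The first held 25 immediate-early genes, all of them tested, and the second 37 cytokine and inflammatory genes, of which 32 were tested (Il12b, Nfkbid, Ifng, Tnfaip3 and Il23a were not). Of the immediate-early transcripts 20, 22, 20, 15 and 11 were called higher in the order of the time-points from 0.5 h to 9 h, and 0 lower, where 4.29%, 3.56%, 7.07%, 12% and 15.8% of all gene names were called higher. Their median change was 1.38, 1.84, 1.11, 0.76 and 0.57 on the log2 scale, with that of all gene names within 0.02 of 0. Of the cytokine transcripts 16, 17, 28, 29 and 29 were called higher and 0 lower, with median changes of 1.28, 1.62, 2.59, 3.38 and 3.09. In 8 of these 32, among them Tnf, Il6 and Csf3, no 0 h array was well above background, so that their fitted changes, which enter these medians, have no measured base, and with each set at its lower bound the medians were 2.30, 2.71 and 2.36 at 3 h, 6 h and 9 h. These 8 entered the test only through a later group in which they were high, and could not have been called lower. Without them 13, 14, 21, 21 and 21 of 24 were called higher and 0 lower.

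**Figure D3:**
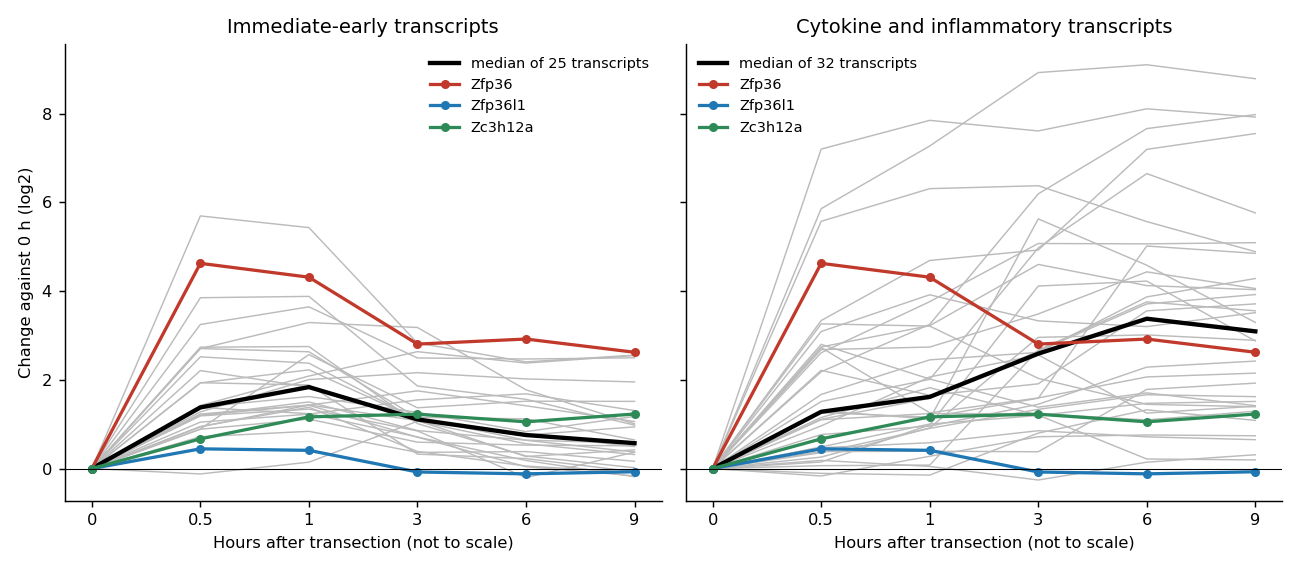
Change against 0 h on the log2 scale (vertical axis) by time-point (horizontal axis) of each tested immediate-early transcript (left, grey) and cytokine transcript (right, grey), the median of each list in black, and Zfp36, Zfp36l1 and Zc3h12a in colour. The median of the first list is highest at 1 h (1.84) and that of the second at 6 h (3.38), and 8 grey lines at right start from signals not well above background.

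The time of the highest mean was compared between Zfp36 and the lists. Of the 24 immediate-early transcripts that passed the F-test, 19 had their highest mean at 0.5 h or 1 h, as did Zfp36 and Zfp36l1, whose highest mean was at 0.5 h under each of the 5 scalings. Of the 29 cytokine transcripts that passed it, 24 had theirs at 3 h or later, and 28 were still called at 9 h, as were Zfp36 and 11 of the immediate-early transcripts. Without the 8 transcripts dim at 0 h, all of which were highest at 3 h or later, the counts were 16 and 20 of 21. The time of the highest mean was not counted over all gene names. Of all gene names 6.01% were called at 0.5 h and 31.1% at 9 h. Zc3h12a was highest at 9 h, but at 3 h under each of the other 4 scalings, so that its time of highest level is not settled beyond 1 h to 9 h. From 1 h to 6 h, within a scan day, 18 of the 25 immediate-early transcripts fell and 1 rose, where 12.5% of all gene names fell and 11.5% rose. Among the 32 cytokine transcripts 17 rose and 3 fell over the same hours, or 10 and 3 of 24 without those dim at 0 h.

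**Figure D4:**
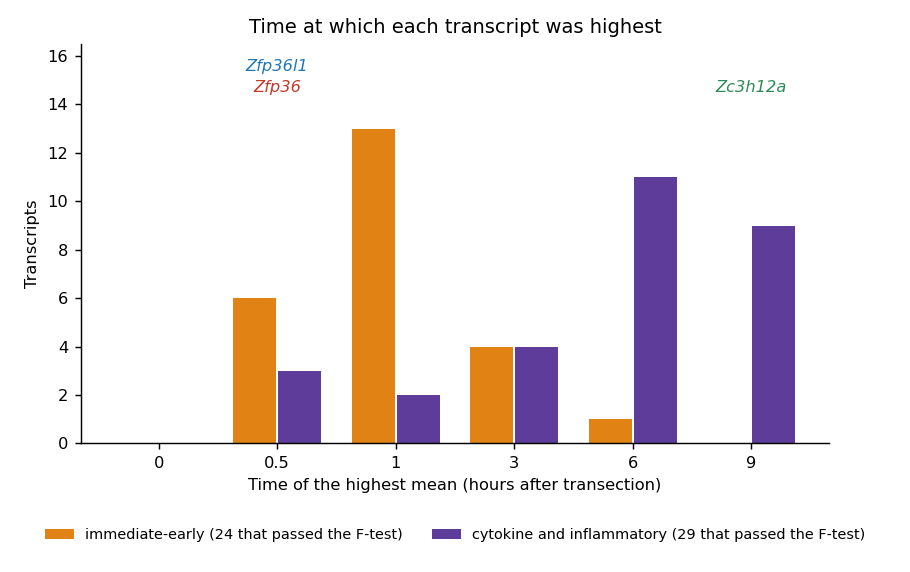
Number of transcripts (vertical axis) by the time-point of the highest mean (horizontal axis) for the 24 immediate-early and 29 cytokine transcripts that passed the F-test, with the 3 regulators that passed it written above their time-point. The first list has the most transcripts at 1 h (13, with 6 at 0.5 h). The second has the most at 6 h (11, with 9 at 9 h), and no transcript of either was highest at 0 h. Of 27199 gene names, 0 were called between 0.5 h and 1 h and 3 between 6 h and 9 h. The order within these pairs is therefore not resolved.

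Profiles were compared among 11306 listed genes whose reported probe was well above background on all 18 arrays. This leaves out the 8 cytokine transcripts dim at 0 h, such as Il6 and Tnf. Over the 18 arrays the profile most like that of Zfp36 was that of Fos (Pearson's r 0.943), followed by Nfkbiz (0.935) and Junb (0.920). These are descriptions over arrays that form 6 time-points, which sets much of each r. Fos, which encodes an AP-1 subunit and whose RNA is a textbook AU-rich transcript, read -1.60, -0.10 and -1.59 in the 0 h group, 5.02, 4.56 and 4.20 in the 0.5 h group, and 1.52, 1.85 and 1.82 in the 3 h group. It rose by 5.69 at 0.5 h (SE 0.33, adjusted P 5.28e-07) and fell by 3.03 from 1 h to 6 h (adjusted P 3.92e-05). Nfkbiz, an inducible co-activator of NF-kB and a known target of Zc3h12a, read -2.97, -2.33 and -2.82 (0 h), 0.95, 0.36 and 0.35 (0.5 h), and -0.98, -0.30 and -0.75 (3 h). It rose by 3.26 at 0.5 h and fell by 1.76 from 1 h to 6 h (adjusted P 0.00023). Both, like Zfp36, kept part of the rise at 9 h, Fos 2.56 and Nfkbiz 1.39 above 0 h.

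**Figure D5:**
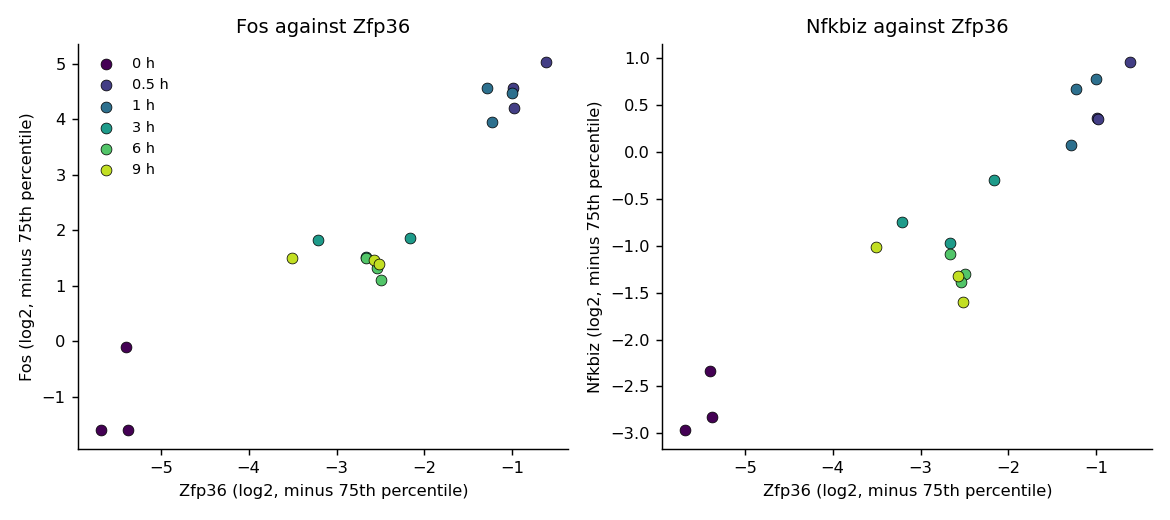
Log2 signal minus the 75th percentile of Fos (left) and Nfkbiz (right) against that of Zfp36 on the 18 arrays, coloured by hours after transection. The 3 arrays of 0 h lie at the lower left, the 0.5 h and 1 h arrays at the upper right and the 3 h to 9 h arrays between them.

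The other regulators had other nearest profiles. Zfp36l1 was most like Mill1, Ncoa7 and Jun (r 0.907, 0.896 and 0.868), Zfp36l2 like Rnf138, Zfp800 and Golph3 (0.863, 0.846 and 0.828), and Zc3h12a like Lrrc56, Abl2 and Lrp8 (0.914, 0.911 and 0.903). Elavl1 was most like Msn, Ddx56 and Zwilch (0.892, 0.890 and 0.887). Between regulators r was 0.538 for Zfp36 with Zfp36l1, 0.477 for Zfp36 with Zc3h12a, -0.01 for Zfp36 with Zfp36l2 and -0.34 for Zfp36 with Elavl1.

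Several immediate-early transcripts with large early changes fell from 1 h to 6 h, as Zfp36 did. Egr1 rose by 3.85 at 0.5 h and 3.88 at 1 h and fell by 2.32 from 1 h to 6 h. Junb rose by 3.25 and 3.65 and fell by 1.18, and Dusp1, a phosphatase that turns off p38, rose by 2.74 and 2.75 and fell by 2.47, back to 0.02 above 0 h at 9 h. Btg2, Atf3, Ccn1 and Ier2 were called higher at 0.5 h, with changes of 2.71, 1.93, 2.52 and 2.21. Each fell from 1 h to 6 h, by 1.99, 1.46, 1.62 and 0.72. Nr4a3 fell by 1.52 over those hours after a rise of 3.29 at 1 h. Myc and Maff did not follow this course: they rose by 2.01 and 2.09 at 1 h, stood at 1.95 and 2.55 at 9 h, and their change from 1 h to 6 h was not called (0.01 and 0.29). Dusp2 rose by 2.57 at 1 h and its change of -1.05 from 1 h to 6 h was not called. With normexp the calls of Dusp2 at 1 h (adjusted P 0.1045) and Maff at 3 h (0.152) were lost.

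The cytokine transcripts included the known targets of Zfp36. Tnf was not well above background on any 0 h array, and rose to at least 1.83-fold over 0 h at 9 h (fitted adjusted P 0.00295), with no call at 0.5 h or 1 h, and with normexp its change at 9 h was not called (0.11). Il6, also a target of Zc3h12a, was at least 13.7-fold higher at 0.5 h and at least 129-fold at 6 h. Csf3, whose probe window is printed above, read -7.75, -7.46 and -7.38 in the 1 h group (none well above background), -3.36, -2.24 and -3.46 in the 3 h group, and -5.10, -5.53 and -5.43 in the 9 h group, so that all 3 h arrays lay above all 9 h arrays (change -2.33 from 3 h to 9 h, adjusted P 0.00067). It was at least 11.2-fold over 0 h at 3 h and at least 2.23-fold at 9 h. Ptgs2, which encodes an inducible cyclooxygenase, was highest at 0.5 h, with a rise of 2.80 and 1.42 left at 9 h, and its change of -0.31 from 1 h to 6 h was not called.

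The chemokine transcripts differed in their course after 1 h. Cxcl2, a neutrophil attractant, was 7.20 above 0 h on the log2 scale at 0.5 h and 7.92 at 9 h, and its change from 1 h to 6 h was not called (0.26). Cxcl1 fell by 0.74 over those hours after a rise of 6.31 at 1 h, the direction of Zfp36. Its highest mean, though, was at 3 h (6.38 above 0 h), by which time Zfp36 had fallen. Cxcl3 rose by 4.41 from 1 h to 6 h, Ccl2 by 1.30 and Ccl7 by 1.42, the opposite direction, and so did the cytokine Il1b, by 1.69. The chemokine Ccl20 and the transcripts Serpinb2 and Il1a, not well above background at 0 h, were at least 60.6-fold, 18.1-fold and 7.02-fold higher at 9 h (normexp lost the call of Il1a at 6 h, with an adjusted P of 0.383). As the summed neutrophil markers rose over the same hours, the part of incoming cells in these levels was not tested.

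The machinery that the regulators recruit was followed in 2 lists. Of 19 genes of the CCR4-NOT and other deadenylase complexes, all tested, 5 passed the F-test (26.3%, against 34.7% of all gene names), and 1, 2, 3, 4 and 5 were called from 0.5 h to 9 h, all higher except Cnot1 at 9 h (up to 26.3% of the list, where 6.01%, 5.63%, 14%, 25% and 31.1% of all gene names were called). The early call at 0.5 h was Btg2, which binds the Cnot7 and Cnot8 deadenylases and is also in the immediate-early list. Cnot11 was 0.33 higher at 3 h and 0.79 higher at 9 h (adjusted P 5.09e-06). Btg1, a paralog of Btg2, was 0.57 higher at 3 h (adjusted P 0.00362), Cnot6l 0.36 higher at 6 h, and Pabpc1, the poly(A) binding protein, 0.31 higher at 9 h. The calls of Btg1 and Pabpc1 were lost with normexp (adjusted P 0.195 and 0.431), and that of Pabpc1 also with scaling by the median (0.14) and without any of 4 arrays (unadjusted P 0.0104 to 0.0269). Cnot1, the scaffold to which Zfp36 binds, was 0.31 lower at 9 h (adjusted P 0.022) and did not pass the F-test (0.179), and the call was lost with quantile normalization (-0.20, adjusted P 0.0814), with normexp, in the deposited matrix and without any of 5 arrays (unadjusted P 0.0125 to 0.0374).

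Of 27 decapping and exosome genes 20 were tested and 10 passed the F-test, against 34.7% of all gene names. Their calls were 1, 2, 1, 6 and 7 from 0.5 h to 9 h, all higher except Exosc3 at 1 h and Lsm3 at 9 h. The 6 at 6 h and 7 at 9 h are 30% and 35% of the 20, against 25% and 31.1% of all gene names, and the earlier counts stand against 6.01%, 5.63% and 14%. Dis3, a nuclease of the exosome, rose by 0.90 at 6 h (adjusted P 0.000101), and Exosc6 by 1.00 at 1 h (adjusted P 0.00215). Exosc7 rose by 0.80 at 6 h and Lsm7 by 0.58 at 9 h, whereas Exosc3 was 0.76 lower at 1 h (adjusted P 0.0208), a call lost with normexp (0.0528) and without replicate 2 of 0 h (0.0875). Normexp also lost that of Lsm7 (0.0552) and scaling by the median that of Exosc7 (0.0606).

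Other proteins that bind such RNAs gave 9 of 18 tested genes past the F-test, of 19 listed, with 3, 3, 4, 6 and 9 called from 0.5 h to 9 h. Among all gene names 34.7% passed the F-test and 6.01%, 5.63%, 14%, 25% and 31.1% were called. Arid5a, which protects Il6 RNA against Zc3h12a, read -1.39, -1.49 and -1.52 (0 h), -0.78, -0.98 and -0.62 (0.5 h), and 0.21, 0.32 and 0.93 (1 h). Its rise of 1.96 at 1 h was called (SE 0.19, adjusted P 6.58e-05), that of 0.67 at 0.5 h was not (0.0571), and 1.37 remained at 9 h, after a fall of 0.82 from 1 h to 6 h. Khsrp, which promotes decay of AU-rich RNAs, rose by 0.78 at 0.5 h (adjusted P 0.0029) and 0.84 at 1 h. The probe named Zfp36l3, a rodent paralog, rose by 1.49 at 0.5 h (adjusted P 0.000563) and stood at 1.35 at 9 h. Whether it also binds RNA of the other paralogs was not tested. Rc3h1 (Roquin-1), which acts on the same stem-loops as Zc3h12a, fell by 0.46 at 9 h (adjusted P 0.00347). Elavl4, a neuronal relative of Elavl1, was 1.02 higher at 9 h (adjusted P 0.00276), and Hnrnpd (Auf1) 0.45 higher (adjusted P 0.00236). Normexp lost the calls of Zfp36l3 at 0.5 h (adjusted P 0.189), Khsrp at 1 h (0.181) and Elavl4 (0.739), and scaling by the median that of Hnrnpd (0.123). Members of this group thus moved both ways, with 6 higher and 3 lower at 9 h.

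The p38 to Mk2 axis, with the phosphatases and 14-3-3 proteins that act on Zfp36, had 6 of 23 tested genes past the F-test (26.1%), of 24 listed, and 2, 1, 2, 3 and 3 called from 0.5 h to 9 h. The 3 called at 6 h and at 9 h are 13.0% of the list, where 25% and 31.1% of all gene names were called. The earlier counts, 8.70%, 4.35% and 8.70% of the list, stand against 6.01%, 5.63% and 14%, and 34.7% of all passed the F-test. Dusp1 gave the largest early change of these. Map2k3, a kinase that activates p38, rose by 1.07 at 6 h (adjusted P 0.000143), while Map2k6, another, fell by 1.21 at 9 h (adjusted P 2.09e-05). Ywhag, a 14-3-3 protein, was 0.51 higher at 9 h, a call lost with normexp, with scaling by the median and without replicate 3 of 0 h or of 9 h (unadjusted P 0.0122 to 0.0374). Ppp2ca, the catalytic subunit of the phosphatase that activates Zfp36, passed the F-test (adjusted P 0.00499) with no call against 0 h, and rose by 0.35 from 1 h to 6 h (adjusted P 0.018). Mapkapk2, which encodes Mk2, was not called at any time-point, with changes from -0.25 to 0.05 and an adjusted P of 0.189 over time. These are levels of RNA, and phosphorylation was not measured on the arrays.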

How the data were processed

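RNA of proximal nerve segments was measured on 18 arrays, 3 per time-point, grouped and numbered by the sample labels. The authors deposited scanner output of Agilent Feature Extraction (version 10.5.1.1 per the file headers), whose processed signal is a linear intensity with background and spatial trends removed, and a matrix of quantile normalized log2 values. Whether an array holds 1 rat or a pool is not given in the sources used here, so P-values measure the spread between arrays, which may be technical, and precision is limited by their number.

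Control spots and spots flagged as outliers (58 to 179 of the latter per array) were left out, the 75th percentile of its array was subtracted from each log2 signal, and spots of a probe were averaged. A probe was tested when any time-point had all 3 arrays well above background (32111 of 41012, under 27199 gene names). RefSeq symbols named 16327 probes by accession, 3741 by symbol and 1098 by a unique synonym, and 19846 kept the name of the files. A gene was reported by its tested probe with the highest mean. A single limma fit gave the F-test and contrasts (prior degrees of freedom 1.94). A fold against a group with no array well above background was set against the lowest signal well above background on each array. On simulated data for 1 h against 0 h over 32111 probes, 67% of 2-fold and 91% of 4-fold changes were found with 10 false calls. The simulated noise was independent for each probe and array, with no effect of scan day or slide. These figures therefore do not cover the part of the scan day in the measured contrast.

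As alternatives, normexp background correction (offset 50), scaling by quantiles or the median, the deposited matrix, other filters on dim probes, replicate number, scan day or slide as a block, a robust trended prior, array weights, calls on any probe of a gene, and fits without each array were run. Fits within a scan day, and contrasts of 6 h or 9 h with 1 h, were added after values were seen. The members, lists and tests were chosen with earlier results of these data known. Genes named from a list are the most changed among those past the F-test, plus a few fixed by role, and Lsm3 was named for its direction after its value was seen. A gene that this rule also names is not reported here. The genes with printed probe windows were chosen by their probe letters, and likeness was Pearson's r over 18 arrays. R 4.3.3 and limma 3.58.1 were used.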

Additional observations from a re-analysis of the deposited data

How the results depend on the processing

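Zfp36 was called over time and against 0 h at all 5 time-points under each alternative tried. With normexp, the number of regulators called fell from 3 to 1 over time, from 2 to 1 at each time-point against 0 h, and from 4 to 1 over the consecutive steps (0 of 2 for the steps from 1 h to 3 h and 3 h to 6 h). Under normexp the median change of all gene names was 0.30 at 1 h and 0.43 at 3 h on the log2 scale, where the other alternative scalings gave -0.13 to -0.03 at these times, and the cause was not tested. At 0.5 h 1 regulator was called with scaling by the median, with no filter on dim probes and within the first scan day. With scaling by the median 2 calls were left over the steps, and 1 of 2 within a scan day. Without each array in turn the counts were 2 to 3 over time, 1 to 2 at 0.5 h, 1 to 3 at 1 h, 2 to 4 over the steps and 1 to 2 for the steps within a scan day. The calls of the early list (88 over 5 time-points) ran from 60 to 96 over the other alternatives and from 79 to 89 without each array, and those of the cytokine list (119) from 81 to 124 and from 112 to 120.

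Some changes against 0 h that no fit called lay so close to 0 that their sign turned. By quantile normalization and in the deposited matrix Zfp36l1 was at 0.0059 and 0.0091 (6 h) and at 0.0718 and 0.0737 (9 h), and Zfp36l2 at 0.0288 and 0.0278 (0.5 h). Zfp36l2 was at -0.15 (1 h) with normexp and at -0.1274 with scaling by the median, which put Elavl1 at -0.0641, -0.0114 and -0.0491 (3 h, 6 h and 9 h). Without each array Zfp36l1 ran from -0.2144 to 0.0389 (3 h) and from -0.1664 to 0.0024 (9 h), Zfp36l2 from -0.0759 to 0.0477 (0.5 h) and from -0.0417 to 0.0919 (1 h), and Elavl1 from -0.1087 to 0.0153 (1 h).

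Arrays of the same replicate number share only that number: 23 of 45 pairs had deviations from the group means that correlated above 0.1 (range -0.30 to 0.46). With replicate number as a block 3 regulators were called over time, 4 over the steps and 2, 3, 2, 2 and 2 from 0.5 h to 9 h, the added call being Zfp36l1 at 1 h (adjusted P 0.0457). Scan day as a block could be fitted only for contrasts within a day and for 9 h against 1 h, 3 h or 6 h. In the latter the 2 arrays of 9 h from the second scan day set the change.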
